A study of Danio rerio with 6 samples.

Results

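Spectrins were followed in 2 populations of gut cells sorted from zebrafish larvae. Members were taken by symbol, as every gene whose name begins with sptbn, sptan or spta, or is sptb. That gave 8 of the 35117 genes in the count files, of which 7 had reads and 6 passed the filter on low counts. Within this family sptbn5 was selected on its large difference in counts between the populations, and the others on their names alone. Lysosome rich enterocytes (LRE, n = 3 libraries) were sorted as double positive for the cldn15la-GFP reporter and for Alexa Fluor 568 dextran. They were set against intestinal epithelial cells (IEC, n = 3 libraries), sorted as positive for the cldn15la-GFP reporter. All larvae were wild type, of strain EK and 6 days old at the sort, and all had received 1 to 2 nl of dextran at 2.5 mg/ml by gavage at 5 days. Whether the IEC gate excluded cells with dextran is not stated in the labels. Nor do they state whether each numbered library is its own pool of larvae, so the p-values reflect the spread among these libraries, part or all of which may be technical.

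Spectrins are long, flexible proteins that line the inner face of the plasma membrane. An alpha chain and a beta chain wind around each other, and the resulting rods join short actin filaments into a meshwork that holds membrane proteins in place through ankyrins. In vertebrate enterocytes this meshwork lies along the lateral membrane and in the terminal web under the microvilli. Beta V spectrin, the product of sptbn5, is a giant beta chain that in mammals binds myosin VIIa and microtubule motors and has been linked to the transport of proteins towards the apical surface.

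Total counts ran from 42321698 to 53250871 in the LRE libraries and from 39590129 to 52824999 in the IEC libraries. LRE 1 stood apart: reads were found for 19396 genes, against 22974 to 25610 in the other 5 libraries, and mitochondrially encoded genes took 21.7% of its counts, against 4.18 to 11.4%. IEC 1 also differed from the other IEC libraries. Mitochondrially encoded genes took 8.73% of its counts, against 4.71% in IEC 2 and 4.18% in IEC 3. Enteroendocrine markers summed to 23502 CPM in IEC 1, against 4218 CPM in IEC 2 and 4938 CPM in IEC 3. Of the 11 genes matched to the markers of lysosome rich enterocytes, 9 were higher in LRE at an adjusted p under 0.05. The test was edgeR's quasi-likelihood test, adjusted over all genes by the Benjamini-Hochberg method. That marker list was chosen with earlier results of these data known, so the count is a description and no independent check of the sort. The reporter's own gene, cldn15la, had a log2 fold change of -0.44 (adjusted p = 0.640). Of the 20979 genes that were tested, 483 (2.30%) passed as higher in LRE and 191 (0.910%) as lower. Scaling by totals alone gave counts of 137 and 182, and DESeq2 gave 1314 and 952. Limma voom gave 606 and 290, and the replicate number as a block gave 789 and 367.

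The largest difference in the family was that of sptbn5 (ENSDARG00000097683), which had 136, 183 and 178 CPM in LRE libraries 1, 2 and 3, against 7.03, 8.94 and 8.36 CPM in IEC libraries 1, 2 and 3 (CPM are counts per 1000000 counts of the TMM-scaled library total). Every LRE value was at least an order of magnitude above every IEC value. The raw counts behind them were 3987, 9233 and 8213 in LRE and 224, 622 and 505 in IEC. The mean was 166 ± 25.6 CPM in LRE and 8.11 ± 0.980 CPM in IEC (SD, n = 3 each), and the fitted log2 fold change was 4.35 ± 0.29 (SE), or 20.4-fold. Since the gene was picked for that difference, these values are a description and carry no test. In these sorted bulk samples, a change in the share of cells that express a gene and a change in its mRNA per cell cannot be told apart.

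**Figure D1:**
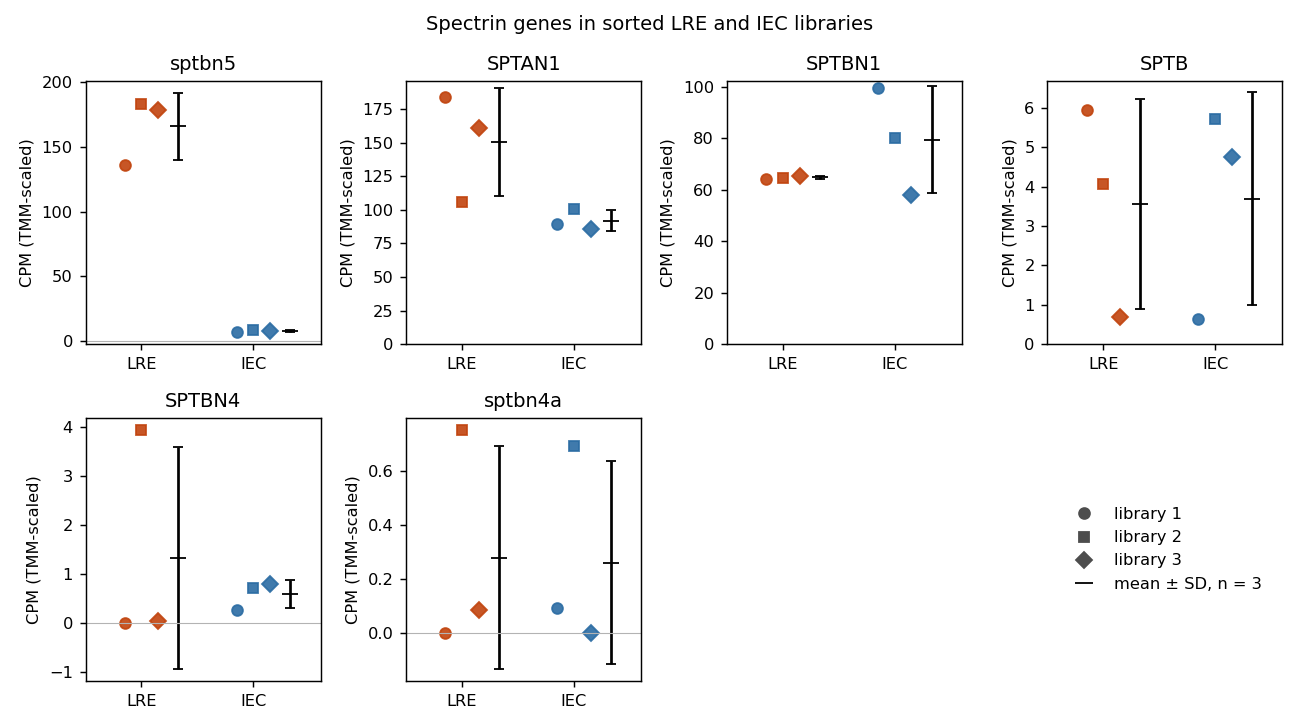
Levels of 6 spectrin genes with reads, in CPM on TMM-scaled totals, with LRE left of IEC in each panel, 1 point per library and bars for mean ± SD (n = 3). The 3 LRE values of sptbn5 (136 to 183 CPM) lie far above its IEC values (7.03 to 8.94 CPM), SPTAN1 is the other gene shown whose groups do not overlap, and each panel has its own scale.

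The only alpha chain matched was SPTAN1 (ENSDARG00000019231), alpha II spectrin, the partner of the nonerythroid beta chains. It had 184, 106 and 161 CPM in LRE libraries 1, 2 and 3, against 89.4, 101 and 85.7 CPM in the IEC libraries. The groups did not overlap, with LRE 2 just above IEC 2. An LRE group wholly above the IEC group was found in 13.0% of all genes tested. The means were 150 ± 40.2 CPM in LRE and 91.9 ± 7.74 CPM in IEC (SD, n = 3 each). With edgeR the log2 fold change was 0.71 ± 0.29 (SE, 95% interval 0.06 to 1.37), which did not pass after adjustment (adjusted p = 0.250). Leaving out single libraries gave 0.54 (without LRE 1, which had the highest value) to 0.91 (without LRE 2, the lowest in LRE). The log2 fold change was 0.27 with scaling by totals alone, a scaling that put the median of all genes at -0.46 in place of -0.06.

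SPTBN1 (ENSDARG00000102883), beta II spectrin, is the broadly expressed partner of alpha II spectrin. Its levels were 64.3, 64.7 and 65.3 CPM in LRE libraries 1, 2 and 3, against 99.6, 80.2 and 58.1 CPM in the IEC libraries. The LRE libraries were nearly equal and lay within the IEC range. The difference fell short of the threshold (log2 fold change -0.29 ± 0.27 SE, 95% interval -0.91 to 0.33, adjusted p = 0.657). A second gene listed as sptbn1 (ENSDARG00000105428) had 0 counts in each of the 6 libraries, which allows up to 3 counts per library. If these are near-identical copies, reads that fit both may have been dropped or split by the counting, so the level of the beta II chain is uncertain.

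SPTB (ENSDARG00000030490), the beta I chain of the red cell membrane and of muscle, was scarce, with 174, 205 and 32 counts in LRE libraries 1, 2 and 3, or 5.95, 4.06 and 0.694 CPM. The IEC libraries held 20, 397 and 287 counts, or 0.627, 5.71 and 4.75 CPM. LRE 3 and IEC 1 were low and the other 4 libraries were alike (log2 fold change -0.06 ± 0.96 SE, 95% interval -2.25 to 2.13, adjusted p = 0.985). Of the 11 genes matched to red cell markers, summed levels ran from 165 to 335 CPM in LRE and from 107 to 235 CPM in IEC, with LRE 3 and IEC 1 lowest in their groups. Of the 8 red cell genes tested, 0 passed with edgeR, and 2 had an unadjusted p under 0.05, against 17.0% of all genes. Their median log2 fold change was 0.17, against -0.06 over all genes. DESeq2 called 1 higher and 1 lower (1314 and 952 of all genes), and limma voom 1 higher (606 of all genes). The globin genes given next were picked out of this list and not named by a rule, and its other members are not given here. Of these, hbae3 alone had 188, 239 and 107 CPM in LRE and 71.2, 163 and 112 CPM in IEC. It held most of the summed level in every library, so that sum largely follows 1 gene. The gene hbae1.1 had 0 counts in every LRE library and 1, 1 and 0 in IEC. Muscle markers, 25 matched genes, summed to 798, 1878 and 2209 CPM in LRE and 372, 705 and 1145 CPM in IEC. The part of either marker list in the level of SPTB was not tested.

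Both beta IV genes, whose chain marks axon initial segments in mammals, had few reads, most of them in a few libraries. SPTBN4 (ENSDARG00000092624) had 0, 199 and 1 counts in LRE libraries 1, 2 and 3, against 8, 49 and 48 in the IEC libraries. A single library, LRE 2, therefore held nearly all LRE reads, and the fitted log2 fold change of 1.17 ± 1.83 (SE, adjusted p = 0.806) was -5.30 without it. The gene sptbn4a (ENSDARG00000068624) had 0, 38 and 4 counts in LRE and 3, 48 and 0 in IEC and did not pass the filter. Of 17 tested neuronal markers, 1 was higher in LRE with edgeR, against 2.30% of all genes. DESeq2 called 4 higher and 1 lower, and limma voom 2 higher and 1 lower. Over all genes DESeq2 called 1314 higher and 952 lower, and limma voom 606 higher and 290 lower. Summed levels of the 18 matched neuronal genes ran from 349 to 484 CPM in LRE and from 273 to 372 CPM in IEC. Their part in the beta IV counts was not tested.

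Of the 5 spectrin genes other than sptbn5 that were tested, 0 passed with edgeR, DESeq2 or limma voom, against a background of 3.21% of all genes in either direction with edgeR. With each of these tools, 1 of them, SPTAN1, had an unadjusted p under 0.05, a cut that 17.0% of all genes tested met with edgeR. None passed in any of the 16 alternatives that tested it; SPTBN4 had no p with DESeq2 and was filtered out at 1 CPM in 3 libraries. Their summed level with the untested chains was 272, 208 and 246 CPM in LRE, against 208, 237 and 183 CPM in IEC. The groups overlapped, and the mean log2 difference was 0.21 (exact two-sided permutation test, p = 0.2, n = 3 each, where the smallest possible p is 0.1). That difference was -0.18 with scaling by totals alone.

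Shares describe which chains made up the spectrin counts of a library. Of all counts in the 8 genes, sptbn5 took 33.4% in LRE 1 (95% Wilson interval 32.6 to 34.2%), 46.8% in LRE 2 (46.1 to 47.5%) and 42.0% in LRE 3 (41.3 to 42.7%). In IEC 1, 2 and 3 it took 3.27% (2.88 to 3.72%), 3.63% (3.36 to 3.92%) and 4.36% (4.00 to 4.75%). These intervals cover counting error only. Among the 7 beta chain genes alone, its share ran from 60.9 to 67.8% in LRE and from 5.61 to 7.89% in IEC. The shares follow from the value for which sptbn5 was picked and are not tested. They compare the groups and do not rank the chains, because a longer transcript yields more fragments and no transcript lengths were used here.

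**Figure D2:**
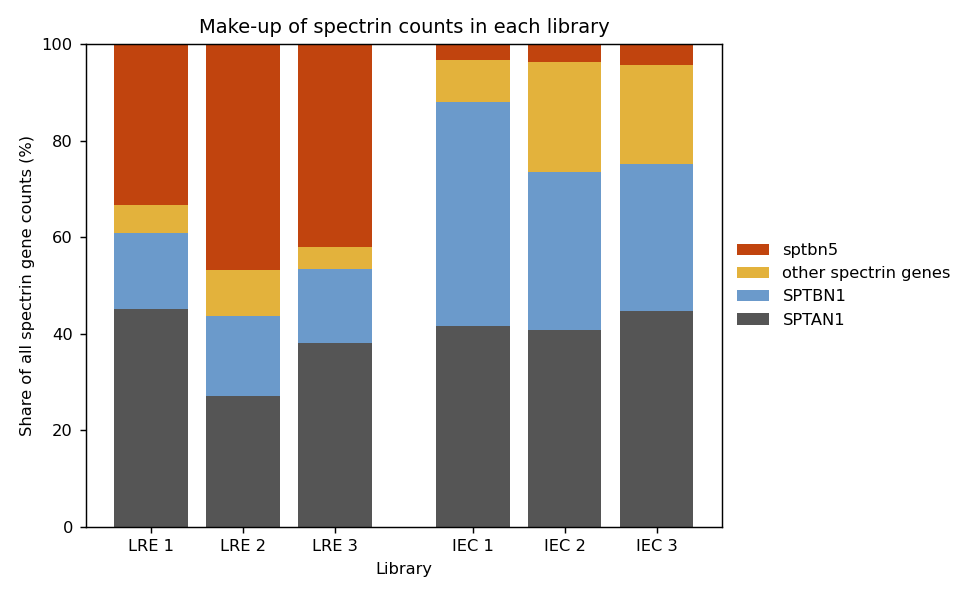
Share of all spectrin counts taken by SPTAN1, SPTBN1, sptbn5 and the remaining spectrin genes together, in percent, with 1 bar per library and the LRE libraries on the left. The sptbn5 segment at the top takes 33.4 to 46.8% of the bar in LRE and 3.27 to 4.36% in IEC.

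The other segments give way to sptbn5 by construction. SPTBN1 took 15.4 to 16.6% of spectrin counts in LRE and 30.3 to 46.4% in IEC. SPTAN1 took 27.1 to 45.1% in LRE and 40.8 to 44.7% in IEC, so the alpha chain share overlapped between the groups. With sptbn5 left out of the beta chains, SPTBN1 made up 63.6 to 77.1% of the remaining beta counts in LRE and 58.6 to 84.3% in IEC, and SPTB made up 0.819 to 6.79% in LRE and 0.531 to 4.87% in IEC. Both proportions overlapped between the groups, with IEC 1 giving the highest SPTBN1 share and the lowest SPTB share.

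Ratios within a library need no scaling between libraries. The count ratio of SPTBN1 to SPTAN1 was 0.349, 0.611 and 0.406 in LRE libraries 1, 2 and 3, against 1.11, 0.797 and 0.678 in the IEC libraries. All LRE ratios lay below all IEC ratios. Among single genes tested, a group wholly to either side was found in 26.8%, and no such share was computed for ratios. On the log2 scale the means were -1.18 ± 0.42 in LRE and -0.24 ± 0.37 in IEC (SD, n = 3 each), a difference of -0.93 (exact two-sided permutation test, p = 0.1, the smallest that 3 against 3 allows). SPTAN1, the denominator, was itself higher in every LRE library than in any IEC library. Since the ratios did not overlap, any pairing or left-out library must give a lower ratio in LRE, so those signs add nothing. Between libraries of the same number the log2 differences were -1.67, -0.38 and -0.74. Leaving out single libraries gave differences from -1.17 to -0.73. The libraries numbered 1 gave the largest difference, and leaving out both of them together was not run for this ratio.

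The ratio of sptbn5 to SPTAN1, given as a description, was 0.740, 1.72 and 1.11 in LRE and 0.0786, 0.0889 and 0.0975 in IEC. Set against SPTBN1, sptbn5 had 2.12, 2.82 and 2.73 counts per SPTBN1 count in LRE and 0.0706, 0.111 and 0.144 in IEC. Each LRE library thus held more sptbn5 than SPTBN1 counts, and each IEC library held fewer, without regard to transcript length.

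**Figure D3:**
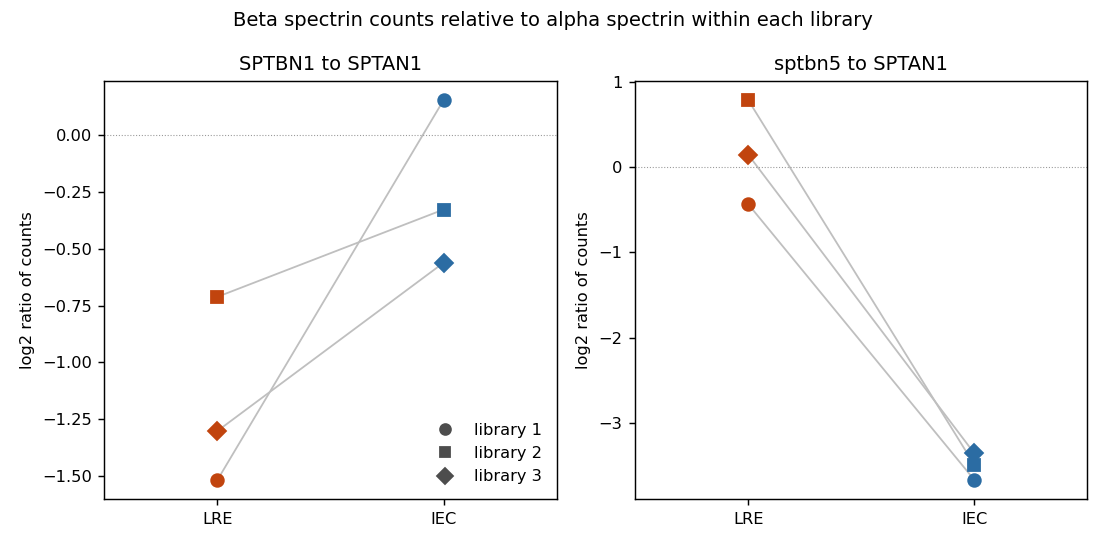
Log2 count ratios within each library, SPTBN1 to SPTAN1 at left and sptbn5 to SPTAN1 at right, with LRE left of IEC and grey lines joining libraries of the same number. Every LRE value of the SPTBN1 ratio lies below every IEC value (means -1.18 in LRE and -0.24 in IEC). Every LRE value of the sptbn5 ratio lies above every IEC value (means 0.17 in LRE and -3.51 in IEC).

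Genes that work with spectrin were described from 6 lists, and in each but the proteases the count of calls depended on the tool. The lists were chosen with earlier results of these data known, so their counts and medians are descriptions. They are read against the shares of all genes, which with edgeR were 2.30% higher and 0.910% lower, and 17.0% at an unadjusted p under 0.05 in either direction. The other tools called more genes over the whole series, so their counts in a list are larger for that reason too. DESeq2 called 1314 higher and 952 lower, and limma voom 606 and 290, against 483 and 191 with edgeR. Of 34 tested genes of the membrane skeleton (ankyrins, adducins, band 4.1 proteins, tropomodulins, capping protein and tropomyosins), 1 was higher, none lower and 33 did not pass, while 6 had an unadjusted p under 0.05 (DESeq2 called 3 higher, limma voom 1 higher). The list's median log2 fold change was 0.18, against -0.06 over all genes. The higher gene was cd44a (ENSDARG00000087863), a hyaluronan receptor that binds ankyrin, with 200, 111 and 145 CPM in LRE and 60.6, 35.7 and 43.9 CPM in IEC (log2 fold change 1.70 ± 0.33 SE, adjusted p = 0.0325). It no longer passed when IEC 2, IEC 3, LRE 1 or LRE 3 was left out (up to 0.157), when both libraries numbered 1 were, or when totals alone set the scale. The most abundant member by counts, the tropomyosin gene tpm3, had 720, 773 and 790 CPM in LRE and 308, 459 and 389 CPM in IEC (log2 fold change 0.98, adjusted p = 0.136), and passed with DESeq2 only (0.0096).

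The ankyrin G and adducin genes, which tie spectrin to the lateral membrane and to actin, were singled out after values of the list were seen, and all 6 that matched are given. Of the ankyrin G genes, ank3b had 40.2, 42.4 and 43.3 CPM in LRE and 21.5, 43.6 and 48.2 CPM in IEC (adjusted p = 0.865), and ANK3 had a log2 fold change of 1.07 (adjusted p = 0.505). Both overlapped between the groups. Of the adducin genes, ADD3 (ENSDARG00000040874) had 158, 136 and 158 CPM in LRE and 171, 179 and 194 CPM in IEC (log2 fold change -0.27, adjusted p = 0.654). The other ADD3 gene (ENSDARG00000056250, log2 fold change 1.27, adjusted p = 0.552), ADD1 (0.22, adjusted p = 0.749) and add2 (0.61, adjusted p = 0.658) overlapped between the groups. None of the 6 passed, and their fold changes differed in sign. The first ADD3 gene alone had LRE values wholly below the IEC values, which was found in 13.8% of all genes tested, and a group wholly to either side was found in 26.8%.

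A further list held myosin VII, proteins that work with it in hair cells and microvilli, other unconventional myosins, and kinesin II and dynactin subunits. It was drawn up because beta V spectrin binds myosin VIIa and kinesin II in mammals. Of 28 tested genes, 0 passed with edgeR and 4 had an unadjusted p under 0.05, against 17.0% of all genes (DESeq2 called 3 lower, limma voom 2 lower). The median log2 fold change was -0.03. The most abundant member by counts, ANKS4B, a scaffold of the links between microvillus tips, had 267, 261 and 277 CPM in LRE and 196, 242 and 250 CPM in IEC (log2 fold change 0.22 ± 0.26 SE, adjusted p = 0.732). The following myosin VII genes were picked out after their values were seen. Both MYO7A genes were scarce, with 0.547, 1.54 and 5.19 CPM in LRE and 0.345, 0.575 and 0.248 CPM in IEC for ENSDARG00000044632, and 0, 58 and 60 counts in LRE and 9, 135 and 36 counts in IEC for ENSDARG00000099871. MYO7B (ENSDARG00000044441), the microvillar myosin VII, had 166, 207 and 120 CPM in LRE and 120, 210 and 141 CPM in IEC (adjusted p = 0.949). MYO7B thus overlapped between the groups.

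Of 28 tested genes for other proteins with spectrin repeats, such as alpha-actinins, dystrophin, plectin and nesprins, 0 passed with edgeR and 3 had an unadjusted p under 0.05, against 17.0% of all genes (DESeq2 called 1 higher and 1 lower, limma voom 0). The most abundant by counts was plecb, a plectin gene, with 308, 378 and 250 CPM in LRE and 263, 167 and 110 CPM in IEC (log2 fold change 0.79, adjusted p = 0.333). The median log2 fold change was 0.08. Among 18 tested calpain, calpastatin and caspase genes, which include proteases that cleave spectrin, 0 passed with edgeR, DESeq2 or limma voom, and 4 had an unadjusted p under 0.05 with edgeR, against the same 17.0%. Their median log2 fold change was 0.30. The most abundant of them by counts, the calpain subunit gene capns1b, had 282, 181 and 234 CPM in LRE and 349, 150 and 178 CPM in IEC (adjusted p = 0.970).

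The brush border and terminal web, where spectrin meets the microvillar core, gave the most edgeR calls among the 6 lists. That ranking is no test, because earlier results of these data were known when the lists were chosen. Of 26 tested genes, 4 were higher, 1 lower and 21 did not pass, against 2.30% higher and 0.910% lower over all genes, and 12 had an unadjusted p under 0.05. DESeq2 called 7 higher and 1 lower, limma voom 6 higher and 1 lower, scaling by totals alone left 1 higher and 1 lower, and leaving out single libraries left 2 to 3 higher and 0 to 1 lower. The list's median log2 fold change was 0.32. The gene tmigd1, which encodes an adhesion protein with immunoglobulin domains, had 521, 458 and 432 CPM in LRE and 17.5, 10.6 and 23.6 CPM in IEC (log2 fold change 4.77 ± 0.40 SE, adjusted p = 0.0020). It passed under all 16 alternatives. PLS1, which encodes the actin bundler plastin 1 that cross-links microvillar actin, had 219, 162 and 273 CPM in LRE and 42.4, 78.4 and 70.2 CPM in IEC (log2 fold change 1.78 ± 0.34 SE, adjusted p = 0.0307). EPS8L2, an actin capping and bundling protein gene, had 165, 164 and 165 CPM in LRE and 63.2, 65.1 and 56.4 CPM in IEC (log2 fold change 1.42 ± 0.24 SE, adjusted p = 0.0195). In all 3 of these genes every LRE library lay above every IEC library, as in 13.0% of all genes tested. They were named because they passed as higher. PLS1 no longer passed when any 1 of the 6 libraries was left out, nor EPS8L2 when IEC 2, IEC 3, LRE 2 or LRE 3 was. Scaling by totals alone ended both calls (0.244 and 0.207), and PLS1 also did not pass without both libraries numbered 1 (0.0855).

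The list held 2 genes named MYO6, the minus-end directed myosin of endocytic membranes. ENSDARG00000044016 had 271, 220 and 282 CPM in LRE, against 48.2, 53.5 and 55.7 CPM in IEC (log2 fold change 2.30, adjusted p = 0.0042), and lost its call with scaling by totals alone (0.0520). ENSDARG00000042141 had 41.6, 25.3 and 19.0 CPM in LRE, against 96.8, 157 and 134 CPM in IEC (log2 fold change -2.18, adjusted p = 0.0190), and no longer passed with IEC 2, IEC 3, LRE 2 or LRE 3 left out (at most 0.0758). VIL1, the villin gene and the most abundant member by counts, had 702, 644 and 818 CPM in LRE and 845, 1359 and 1257 CPM in IEC and did not pass (adjusted p = 0.357).

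Membrane proteins that ankyrin and spectrin hold in the lateral membrane, such as the sodium pump, E-cadherin and bicarbonate carriers, had the highest median of the 6 lists. Of 29 tested genes, 1 was higher, none lower and 28 did not pass, with a median log2 fold change of 0.72 against -0.06 over all genes. An unadjusted p under 0.05 was met by 12 of them, against 17.0% of all genes with edgeR. The genes called higher numbered 7 with DESeq2, 2 with limma voom, 2 with the replicate block and 0 with scaling by totals alone. Over all genes those counts were 1314, 606, 789 and 137, against 483 with edgeR. Summed levels of the 31 matched genes ran from 3911 to 3921 CPM in LRE and from 1934 to 2761 CPM in IEC. Among single genes tested, an LRE group wholly above the IEC group was found in 13.0%. The higher gene was SLC4A4 (ENSDARG00000013730), a sodium bicarbonate cotransporter, with 151, 250 and 191 CPM in LRE and 22.6, 38.2 and 48.4 CPM in IEC (log2 fold change 2.44 ± 0.37 SE, adjusted p = 0.0127). Leaving out IEC 2 ended that call (0.0596), as did scaling by totals alone (0.124). The sodium pump subunit gene ATP1B1 (ENSDARG00000013144), the most abundant member by counts, had 1650, 1255 and 1232 CPM in LRE and 871, 835 and 775 CPM in IEC (log2 fold change 0.74, which missed the threshold at an adjusted p of 0.283).

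**Figure D4:**
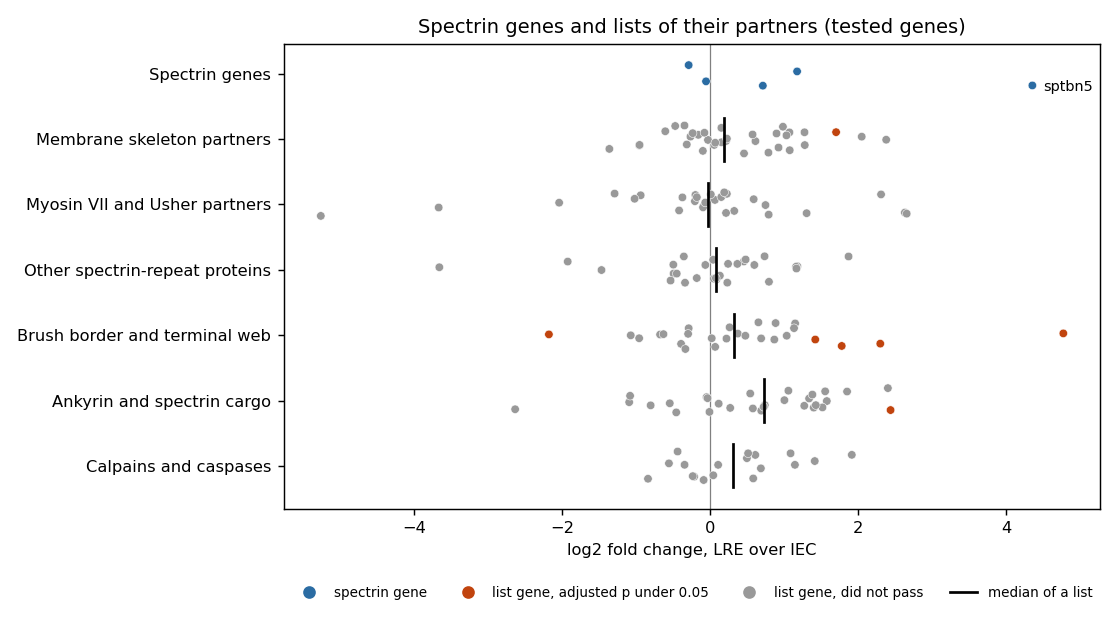
Log2 fold changes (LRE over IEC) of 5 tested spectrin genes and of the tested genes in each of the 6 partner lists, 1 point per gene, red where a list gene passed and black ticks at list medians. sptbn5 lies at 4.35 while the other spectrin genes shown lie between -0.29 and 1.17, and list medians run from -0.03 to 0.72.

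Markers of some other cell types also differed between the groups. Of 16 tested enteroendocrine markers 6 were lower in LRE, against 0.910% of all genes, and 13 had an unadjusted p under 0.05, against 17.0%. The median log2 fold change of these markers was -2.58, and DESeq2 called 10 lower and limma voom 6. Their sums were 305 to 2376 CPM in LRE and 4218 to 23502 CPM in IEC. Of 17 tested enterocyte markers, 1 was lower, against the same 0.910%, and 9 had an unadjusted p under 0.05, against the same 17.0%. The median log2 fold change of these markers was -0.68, and DESeq2 and limma voom each called 2 lower. Their sums were 6135 to 7920 CPM in LRE and 7590 to 10091 CPM in IEC. In the other 7 marker lists (red cells, muscle, leukocytes, goblet cells, hepatocytes, exocrine pancreas and mesenchyme) 0 of 86 tested genes passed with edgeR and 27 had an unadjusted p under 0.05, against 17.0% of all genes (DESeq2 called 9 higher and 4 lower, limma voom 2 higher and 1 lower). Over all genes DESeq2 called 1314 higher and 952 lower, and limma voom 606 higher and 290 lower. Mesenchymal markers summed to 3390 to 5151 CPM in LRE and 1166 to 2056 CPM in IEC without overlap. Leukocyte markers summed to 127 to 204 CPM in LRE and 233 to 573 CPM in IEC, also without overlap. Goblet cell markers summed to 289 to 1059 CPM in LRE and 1195 to 2518 CPM in IEC, again without overlap. Among single genes tested, a group wholly to either side was found in 26.8%. Hepatocyte markers (1016 to 2165 CPM in LRE, 651 to 1388 CPM in IEC) and pancreatic markers (432 to 5488 CPM in LRE, 1637 to 4738 CPM in IEC) overlapped. The part of these cell types in the values of the spectrin and partner genes was not tested.

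The 5 named genes whose pattern over the 6 libraries lay nearest to that of sptbn5 were nat8l2, TTC38, tpcn3, SNX2 and ACP7. Likeness was the root mean square difference of log2(CPM + 0.1) after centring each gene on its mean, and it was 0.20, 0.29, 0.34, 0.34 and 0.35 in that order. The nearest, nat8l2, an acetyltransferase family gene, had 19.3, 28.0 and 24.9 CPM in LRE and 0.973, 0.862 and 0.860 CPM in IEC. SNX2, a sorting nexin gene of endosomes, had 294, 214 and 313 CPM in LRE and 15.8, 19.1 and 19.1 CPM in IEC. Like sptbn5, nat8l2 was lowest within LRE in LRE 1 and highest in LRE 2. SNX2, TTC38, tpcn3 and ACP7 were each lowest within LRE in LRE 2, where sptbn5 was highest. Their likeness to sptbn5 thus lay in the difference between the groups and not in the order of the LRE libraries. TTC38 averaged 235 ± 67.6 CPM in LRE and 11.1 ± 3.22 CPM in IEC (SD, n = 3 each). The channel gene tpcn3 averaged 37.4 ± 6.01 CPM in LRE and 2.15 ± 0.33 CPM in IEC, and the acid phosphatase family gene ACP7 averaged 64.6 ± 22.2 CPM in LRE and 3.60 ± 0.60 CPM in IEC. In all 5 genes the LRE values lay above the IEC values. These genes were chosen for their pattern, and their fold changes are not tested.

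**Figure D5:**
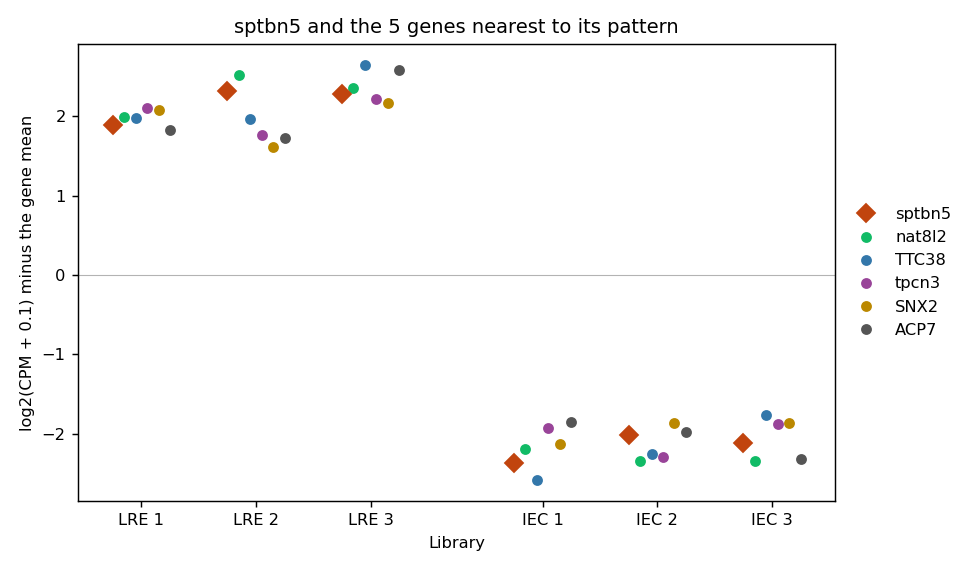
Centred log2(CPM + 0.1) of sptbn5 (red diamonds) and of the 5 genes nearest to its pattern, 1 column of points per library, LRE at left. All 6 genes are above their mean in each LRE library and below it in each IEC library, which is how they were chosen.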

How the data were processed

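RNA sequencing was done on 3 LRE and 3 IEC libraries grouped by their titles; RNA was taken 24 hours after gavage. The submitters' processing notes name HISAT2, HTSeq and the GRCz10 build. Their versions, the annotation and the counting modes were not given in the sources used here. Each deposited file holds raw whole-number counts for the Ensembl genes, with no normalization. Library preparation used an ultra low input kit, per the labels' protocols, and such amplification can widen the spread between libraries. Reads of near-identical or overlapping genes are uncertain.

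Symbols came from a table that named 27000 of the 35117 IDs and often omits paralog letters, so spectrin names follow it. Transcript lengths, sequences and coordinates were not used. Counts were fitted with edgeR 4.0.16 (R 4.3.3, TMM factors 0.692 to 1.40) on 20979 genes kept by filterByExpr with minimum count 10 and minimum total 15. The p-values of the quasi-likelihood F test were adjusted by Benjamini-Hochberg over all genes, with a threshold of 0.05. Counts simulated from the fitted model itself served to check the code, and not how well the model suits these libraries. The SE is the log2 fold change divided by the root of F. Alternatives used DESeq2 1.42.0, limma voom (limma 3.58.1), other scalings and filters, a replicate block and left-out libraries.

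The labels do not say what a replicate number marks. Deviations from group means correlated at 0.188 to 0.238 between LRE and IEC libraries that share a number, and at -0.194 to 0.0136 between those that do not (Pearson's r across genes, which are not independent replicates). Centring on group means pushes the correlations of the other pairs down where those of a shared number are positive. The ranges are therefore not independent evidence of pairing. With that limit, and from the data rather than the design, libraries of 1 number were treated as pairs in the block fit.

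Of the spectrin genes tested, 1 is not reported here by itself, though the counts and sums over the family include it. The members, the 6 partner lists and the 11 marker lists were chosen with earlier results of these data known. Listed names were matched without regard to case, with or without a final a, b or number. Genes named by rule were all members, each partner list's passing and most abundant genes, and the 5 nearest in pattern to sptbn5. Others were picked out apart from that rule, among them cldn15la, hbae3, hbae1.1 and the ankyrin G, adducin and myosin VII genes.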

Additional observations from a re-analysis of the deposited data

How the results depend on the processing

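The log2 fold change of sptbn5 stayed between 3.95 (scaling by totals alone) and 4.47 (without LRE 1) over the 16 alternatives, and its difference in share of spectrin counts between 34.0 and 40.7 percentage points when single libraries were left out (37.0 with all). Since sptbn5 was picked for its difference in these same libraries, both ranges are a description and no check of that difference. None of the 5 other tested spectrin genes passed in any alternative that tested it. Directions turned for genes that were not called. SPTB ranged from -0.64 to 0.41 when single libraries were left out. SPTBN4 was -1.90 with limma voom and -2.66 with the replicate block, and ranged from -5.30 to 1.75 over left-out libraries. With scaling by totals alone ANKS4B was -0.21, capns1b -0.27 and the summed level of the other spectrins -0.18; capns1b ranged from -0.24 to 0.50 over left-out libraries. The cause was not tested.

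Of all genes, 137 were higher with scaling by totals alone, 1314 with DESeq2, 789 with the replicate block, 251 without both libraries numbered 1, and 146 to 419 without single libraries. The genes lower numbered 952 with DESeq2, 290 with limma voom, 367 with the replicate block, and 28 to 261 without single libraries. With the replicate block, an exact sign-flip test over 3 pairs gave p = 0.25, the smallest it allows, for the ratio of SPTBN1 to SPTAN1 (-0.93) and p = 0.5 for the summed level without sptbn5 (0.21). The block changed no call of a spectrin gene. Shares per length of transcript were not run, since no lengths were used. For SPTB and both beta IV genes, which have few reads, counts differed widely between libraries of 1 group. Fits without 1 library leave few degrees of freedom, so lost calls there do not show that a difference is absent.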
